A study of Mus musculus with 48 samples.

Results

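The collagen genes of mouse mammary tumors were described as the 44 genes whose annotated symbol has the form Col, a type number, the letter a and a chain number, out of 19938 genes measured. They comprised 11 genes of fibrillar collagens, 6 genes of basement membrane (type IV) collagen and 27 genes of other types. Signal had been measured on Affymetrix Mouse 1.0ST arrays in 48 tumors, 4 from each of 12 models, and is given as log2 signal throughout. Of spontaneous origin in BALB/c mice were TS/A-E1, F311, EMT-6, D2A1 and 4T1. From genetically engineered FVB/N mice came Met-1, MVT-1, M6, HRM-1 and 6DT1, while E0771 arose spontaneously in C57BL/6 mice and R3T came from engineered 129Sv mice. No treatment is named in the labels. Cells were placed into fat pad 4 of syngeneic mice with an intact immune system, and the tumors were collected at 0.5 to 1.0 cm in diameter. Each model is therefore 1 implanted line, and its RNA is a mixture from tumor cells and from cells of the host. According to the methods and labels, the MVT-1 line came from a tumor of mice that carried Myc and VEGF transgenes under the MMTV promoter, and the transgenes behind the other engineered lines were not described in those sources.

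Collagens are secreted proteins in which chains wind into a triple helix. Fibrillar types I, III and V form the fibers of connective tissue and are made chiefly by fibroblasts, whereas type IV forms the sheet-like network of basement membranes under epithelium and around vessels, and types II, IX, X and XI are best known from cartilage. Procollagen chains are hydroxylated and folded in the endoplasmic reticulum, trimmed outside the cell and then crosslinked by lysyl oxidases.

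The marker collagens were detected: the mean log2 signal of Col1a1, Col4a1 and Col5a1 was 11.76, 9.23 and 8.72, at percentiles 98.43, 74.45 and 66.11 of all genes. Of the 44 genes, 23 had a mean signal above the median of all genes (7.59). The signal of an array includes a background that differs between probes, so that levels were not compared between genes, and the number of arrays limits the precision. Host tissue varied among tumors of the same model: 9 tumors had an adipocyte or B cell score above 2.5, and in the F-test of limma over the models 0 of 7 adipocyte, 0 of 5 B cell and 0 of 6 skeletal muscle genes passed (none at an unadjusted p under 0.05 either), against 6 of 7 fibroblast, 5 of 8 endothelial, 8 of 8 luminal, 4 of 8 basal and myoepithelial and 6 of 6 macrophage genes. In single models 4 of the muscle genes were higher in M6 and 2 of the adipocyte genes in 6DT1. A score is the mean over a list of log2 signal relative to the median tumor. In bulk tumors, fewer cells of a type and less RNA per cell cannot be told apart.

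Collagen expression differed among the models for most of the genes, as did the expression of most genes tested. In the F-test over the 12 models 34 of the 44 genes passed (adjusted p below 0.05, Benjamini-Hochberg), or 77.3%, beside 70.4% of all genes tested. The 6 type IV genes passed, as did 9 of 11 fibrillar genes and 19 of 27 genes of other types. Among the 23 collagen genes above the median signal 91.3% passed, beside 95.9% of all genes above it, and among the 21 below it 61.9% passed, beside 44.8%. The difference between the highest and the lowest model mean had a median of 0.99 over the collagen genes and 0.68 over all genes. It was 1.53 for the fibrillar genes, 1.05 for type IV and 0.93 for the others. The spread within models was wider too, with a median pooled SD of 0.22 over the collagen genes and 0.15 over all genes.

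**Figure D1:**
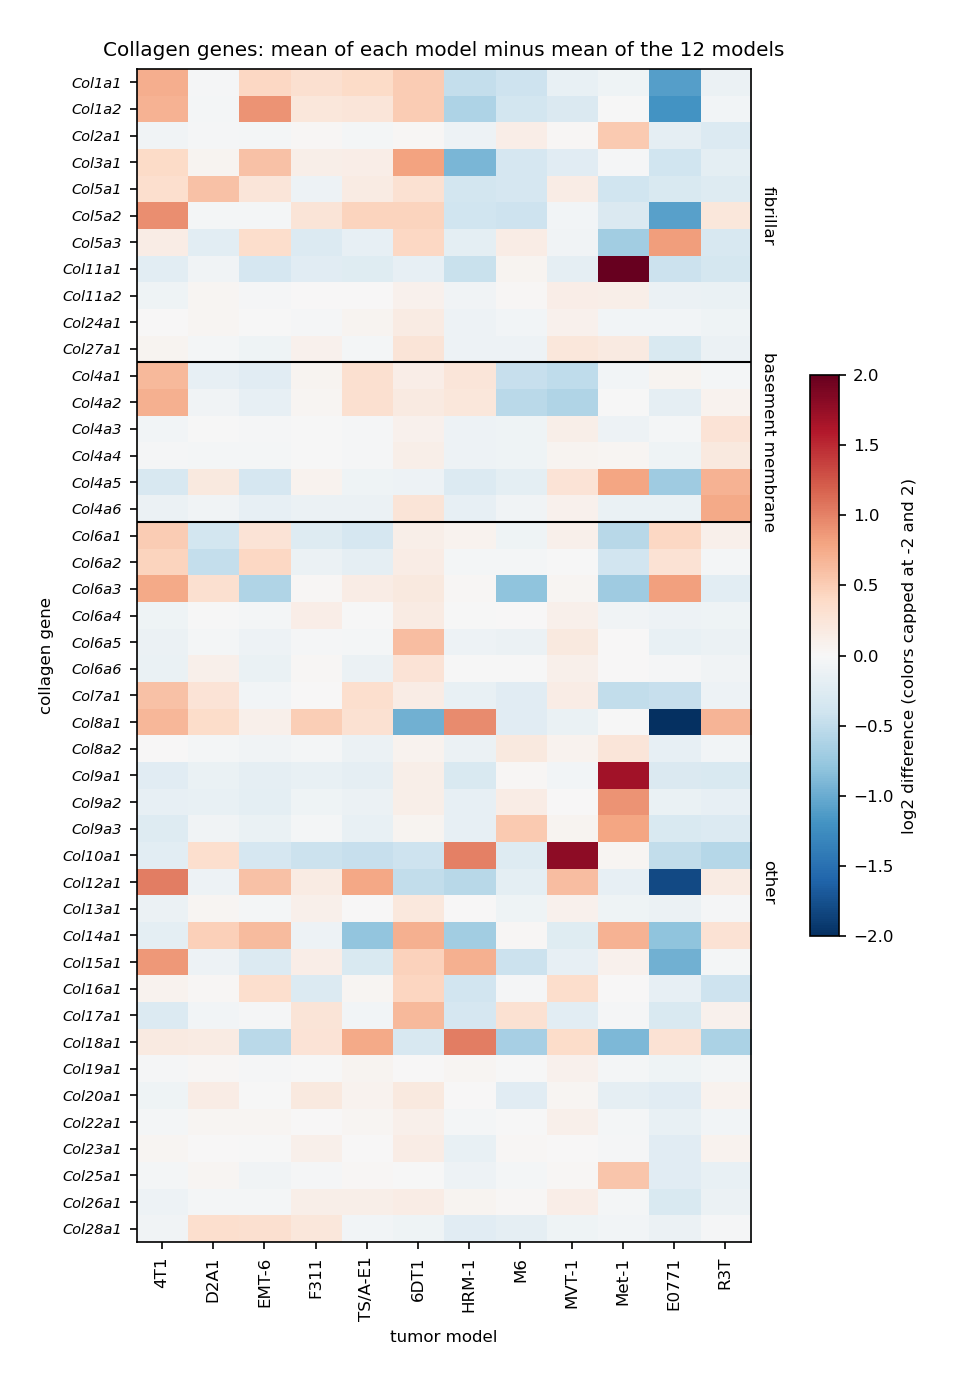
Mean log2 signal of each model minus the mean of the 12 models (columns) for the 44 collagen genes (rows), grouped into fibrillar, basement membrane and other types. The darkest cells are Col11a1 and Col9a1 in Met-1, Col10a1 in MVT-1, and Col8a1 and Col12a1 in E0771, and 18 genes have their lowest mean in E0771.

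The 12 genes with the widest range of model means were Col8a1, with 3.18 between HRM-1 and E0771, Col11a1 (3.05), Col12a1 (2.84), Col10a1 (2.35), Col1a2 (2.10), Col5a2 (2.01), Col9a1 (1.99), Col18a1 (1.92), Col1a1 (1.83), Col15a1 (1.83), Col3a1 (1.72) and Col6a3 (1.63). The 3.18 of Col8a1 is a 9.05-fold difference in signal. The highest mean of a collagen gene lay in 6DT1 for 14 genes, in 4T1 for 9 and in Met-1 for 8, and the lowest lay in E0771 for 18 and in HRM-1 for 8. In 3 genes every tumor of the highest model lay above every other tumor, namely Col11a1 and Col9a1 in Met-1 and Col6a5 in 6DT1. In 2 genes every tumor of the lowest model lay below every other tumor, namely Col4a5 in E0771 and Col5a3 in Met-1. None of these counts was made over all genes, so they describe the collagen genes and cannot be called few or many.

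Type I collagen, the chief collagen of connective tissue, is made of chains from Col1a1 and Col1a2. Col1a1 signal was highest in 4T1 tumors, at 12.64, 12.64, 12.64 and 12.08, and lowest in E0771 tumors, at 11.65, 9.71, 10.84 and 10.47. Replicates 1 and 3 of E0771 lay above the lowest tumor of the other models, M6 replicate 1 at 10.69. Replicate 1 is also rich in adipocyte genes (score 3.50, against at most -0.07 in the other E0771 tumors), and replicate 3 had the highest skeletal muscle score of the study (4.40, against at most 0.04 in the other E0771 tumors). The other models were spread without a wide gap, from 12.28 ± 0.32 in 6DT1 and 12.18 ± 0.36 in EMT-6 to 11.34 ± 0.56 in M6 and 11.28 ± 0.26 in HRM-1 (mean ± SD, n = 4). The widest step between neighbours in this order was 0.62, between HRM-1 and E0771. The ranges of 4T1, 6DT1, EMT-6, TS/A-E1 and F311, with means of 12.50 to 12.09, overlapped. Col1a2 followed nearly the same order, with 12.14 ± 0.24 in EMT-6 and 10.04 ± 0.87 in E0771 (SD, n = 4). Over the 12 model means the correlation of the 2 genes was 0.958, and over the 48 tumors after subtraction of the model mean it was 0.969. These correlations are descriptions, and the values of both genes come from the same arrays.

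**Figure D2:**
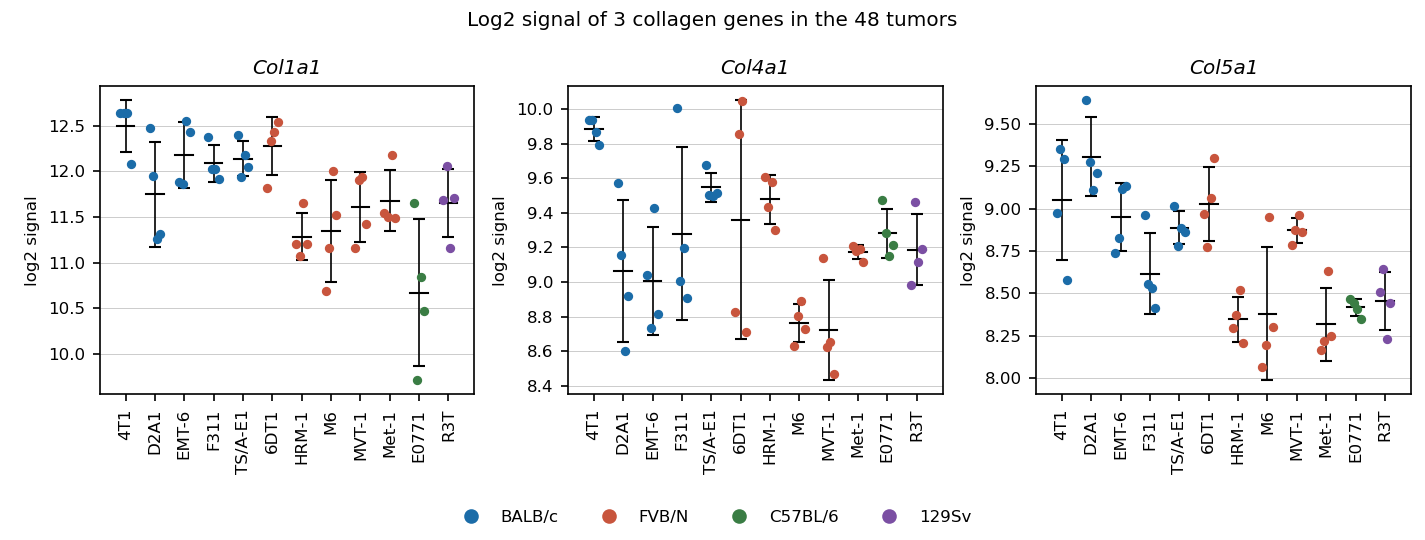
Log2 signal of Col1a1, Col4a1 and Col5a1 (a panel each, with its own axis) in the 48 tumors by model. Points are tumors colored by strain, the horizontal line is the mean of the 4 tumors and the bar is its SD. E0771 has the lowest mean of Col1a1 (10.67), MVT-1 the lowest of Col4a1 (8.72) and D2A1 the highest of Col5a1 (9.31).

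Type III collagen (Col3a1), which shares fibrils with type I in extensible tissues, was highest in 6DT1 tumors, at 10.14, 11.55, 11.76 and 11.31, and lowest in HRM-1 tumors, at 9.19, 9.10, 10.28 and 9.29. Replicate 1 of 6DT1 lay well below the other 6DT1 tumors, and replicate 3 of HRM-1 stood above the other HRM-1 tumors. In the contrast of a model with the mean of the other 11, Col3a1 was higher in 6DT1 by 0.88 ± 0.28 (SE, adjusted p = 0.012) and lower in HRM-1, with -0.99 ± 0.28 (SE, adjusted p = 0.0062). The call in 6DT1 was lost without replicate 2 (adjusted p = 0.0762), without replicate 3 (0.0917), and without the host-rich tumors, where the difference was 0.534.

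Type V collagen starts the assembly of type I fibrils, and its 3 genes had different extremes. Col5a1 was highest in D2A1 tumors, at 9.64, 9.27, 9.11 and 9.21, with 9.05 ± 0.36 in 4T1 (SD, n = 4) as the next mean, so that the ranges overlap. It passed in more model contrasts than any other collagen gene, 7 of 12, with the lowest mean in Met-1 at 8.32 ± 0.21 (SD, n = 4). Col5a2 resembled type I, with 9.31, 9.42, 9.49 and 8.71 in 4T1 and 7.98, 6.48, 7.35 and 7.09 in E0771. Col5a3, the third chain, had its highest values in E0771, at 8.89, 9.19, 9.04 and 9.23, and its lowest in Met-1, at 7.44, 7.53, 7.49 and 7.76. E0771 thus held the lowest Col5a2 and the highest Col5a3 of the 12 models. No Met-1 tumor reached the Col5a3 value of any other tumor.

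Col4a1 and Col4a2 encode the chains of the common type IV network and lie head to head on chromosome 8. The first bases of their transcripts are 22 bases apart, counting both ends, at chr8:11312805-11312826 of GRCm38.p6, with Col4a2 read from the + strand and Col4a1 from the - strand. Col4a2 starts at the lower position, so that both transcripts cover these bases. The run is shown on the + strand because both genes start from it, and capitals mark a GC box, the letters GGGCGG. On either strand 32.7% of 32851 RefSeq promoter windows hold a GC box in the 250 bases before the start. That is a longer stretch and lies outside the transcript, so the share is no measure for this run.

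Col4a1 and Col4a2 shared start: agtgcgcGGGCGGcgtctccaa

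The signals of this gene pair moved together, with a correlation of 0.965 over the 12 model means and 0.979 over tumors within models. Col4a1 signal was 9.93, 9.94, 9.87 and 9.79 in 4T1 and 9.14, 8.62, 8.65 and 8.47 in MVT-1, and these ranges did not overlap. Values of 10.05 and 9.86 in 2 of the 6DT1 tumors were as high as 4T1, although the other 2 tumors of that model were at 8.83 and 8.71. The 6DT1 tumors with high Col4a1, replicates 2 and 3, had endothelial scores of 1.32 and 1.34 and adipocyte scores of 4.11 and 4.21, against endothelial scores of -0.52 and -0.69 and adipocyte scores of -1.10 and -1.17 in replicates 1 and 4. The part of these cells in the result was not tested. In 4T1 Col4a1 was higher by 0.71 ± 0.16 and Col4a2 by 0.78 ± 0.17 (SE, adjusted p = 0.00077 and 0.00053). Of 8 endothelial genes 4 were also higher in 4T1, whose endothelial score was 0.45 to 0.66, against -0.85 to 1.34 in the other tumors, and the part of vessels in the result was not tested. Both genes were lower in MVT-1, with -0.55 ± 0.16 for Col4a1 and -0.66 ± 0.17 for Col4a2 (SE, adjusted p = 0.011 and 0.0040), and in M6, with -0.51 ± 0.16 and -0.59 ± 0.17 (SE, adjusted p = 0.010 and 0.0046). In MVT-1 the call of Col4a1 was lost without replicate 2 (adjusted p = 0.0512) or replicate 4 (0.0721).

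The remaining type IV chains form more restricted networks, that of Col4a3 and Col4a4 being best known from kidney and lung. All of these chains were highest in other models. Col4a6 was 6.88, 6.77, 7.33 and 7.41 in R3T, with 6DT1 next at 6.60 ± 0.35 (SD, n = 4) and 1 of its tumors, at 7.10, inside the R3T range. Col4a5 was 8.13, 7.82, 8.53 and 8.60 in R3T and 8.61, 7.47, 8.79 and 8.54 in Met-1, so that these models overlapped, and 6.91, 6.91, 6.82 and 6.79 in E0771, below every other tumor. In R3T 4 collagen genes were higher than in the mean of the other 11 models, and they were the 4 restricted type IV genes, with 0.83 ± 0.10 for Col4a6, 0.76 ± 0.13 for Col4a5, 0.31 ± 0.06 for Col4a3 and 0.21 ± 0.05 for Col4a4 (SE, adjusted p = 1.2e-08, 3.0e-05, 9.8e-05 and 0.0014). Of 8 luminal genes 7 were also higher in R3T, with a score of 0.64 to 0.88, against -2.89 to 1.00 in the other tumors, and their part in the result was not tested. The background in R3T was 13.2% of all genes higher and 10% lower. Col4a3 and Col4a4 had low array signal, with R3T means of 6.93 ± 0.08 and 6.80 ± 0.04 (SD, n = 4). Col4a4 no longer passed in R3T, or in the F-test (adjusted p = 0.22), after each array was centred on its median.

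Col4a5 and Col4a6 also lie head to head, on the X chromosome, with the first bases of their transcripts 1343 bases apart. Their correlation was 0.514 over model means and 0.13 over tumors within models, and Met-1, with the highest Col4a5, had a Col4a6 of 6.20 ± 0.19 (SD, n = 4). For Col4a3 and Col4a4 the values were 0.866 and 0.668. The mean of the 6 type IV genes, each relative to its mean over the 48 tumors, ranged from -0.24 in M6 to 0.33 in R3T, with a pooled SD of 0.13 within models.

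**Figure D3:**
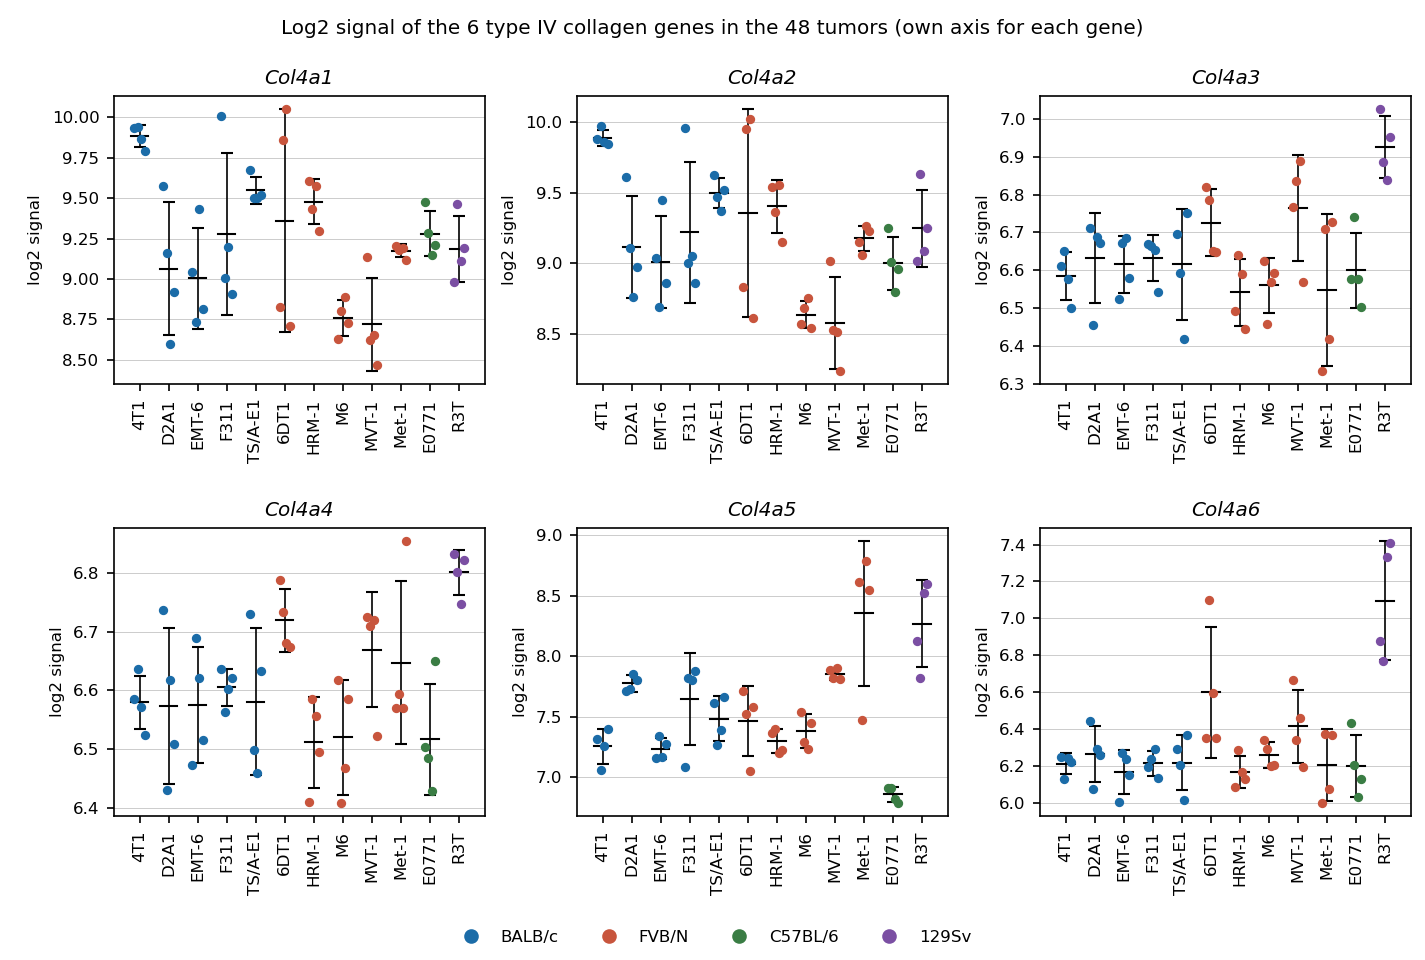
Log2 signal of Col4a1 to Col4a6 in the 48 tumors by model, a panel for each gene with its own axis. Points are tumors colored by strain, lines are means and bars are SDs of 4 tumors. 4T1 has the highest means of Col4a1 and Col4a2, R3T the highest of Col4a3, Col4a4 and Col4a6, and Met-1 the highest of Col4a5.

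Type VI collagen forms beaded microfibrils around cells from chains of Col6a1, Col6a2 and Col6a3. Col6a3 was highest in E0771, at 10.69, 11.21, 10.93 and 11.10, followed by 4T1 at 10.93 ± 0.47 (SD, n = 4), and lowest in M6, at 8.68, 9.19, 10.03 and 9.53. Col6a1 was 10.88 ± 0.31 in 4T1 and 10.80 ± 0.21 in E0771 and was lowest in Met-1 at 9.83 ± 0.21 (SD, n = 4). Col6a1 and Col6a2, both on chromosome 10, had a correlation of 0.927 over model means, against 0.455 for Col6a1 and Col6a3. Col6a5 stood out in 6DT1, at 7.13, 7.50, 6.94 and 6.81, where every tumor lay above the 6.78 that was the maximum elsewhere. Col6a4 and Col6a6 did not pass in the F-test (adjusted p = 0.38 and 0.070), and Col6a6 passed after quantile normalization or centring (adjusted p = 0.0178 and 0.0176).

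E0771 tumors had the lowest signal of many collagens. Against the mean of the other 11 models 18 collagen genes were lower, or 40.9%, beside 17.8% of all genes, and 3 were higher, beside 19.8% of all genes. The median difference was -0.20 over the collagen genes and -0.01 over all genes. Col8a1, a short-chain collagen of vessel walls, was 8.35, 7.97, 8.92 and 7.76 in E0771. Of the other 44 tumors only replicate 1 of 6DT1, at 8.06, lay below the highest of these. Col12a1, which binds to the surface of type I fibrils, was 9.39, 8.11, 9.69 and 9.16, with a lowest value of 9.46 elsewhere. The differences were -2.44 ± 0.31 for Col8a1 and -1.98 ± 0.32 for Col12a1 (SE, adjusted p = 3.6e-08 and 2.8e-06). Col1a2 (-1.30 ± 0.25), Col1a1 (-1.20 ± 0.21), Col5a2 (-1.18 ± 0.21) and Col15a1 (-1.04 ± 0.23) followed (SE, adjusted p = 4.3e-05, 1.9e-05, 1.4e-05 and 0.00031).

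The 3 genes that were higher in E0771 were Col5a3 (0.92 ± 0.13), Col6a3 (0.89 ± 0.20) and Col6a1 (0.46 ± 0.14; SE, adjusted p = 6.0e-07, 0.00039 and 0.0077). Fibroblast markers in E0771 were lower for 2 of 7 genes, Lum and Thy1, with a fibroblast score of -0.89 to 0.23, against -1.32 to 1.51 in the other tumors. Luminal markers were lower for 7 of 8 genes. Their part in the result was not tested. Without the host-rich tumors 19 genes were lower and 4 higher, beside 21.4% and 24.3% of all genes. All 3 genes named as higher kept their call. The split of 3 higher and 18 lower became 3 and 12 after quantile normalization and 4 and 10 after each array was centred on its median, and without E0771 replicate 3, the tumor with the muscle score of 4.40, a total of 14 genes passed in place of 21.

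The 12 contrasts share their tumors and are set side by side. In 4T1 and 6DT1 the balance was the opposite, with 12 genes higher and 1 lower in each. In 4T1 11.8% of all genes were higher and 12.8% lower, and in 6DT1 15.6% were higher and 19.9% lower, while 27.3% of the collagen genes were higher in either model. Col1a1 and Col5a1 were higher in both models, joined by Col1a2, Col5a2 and Col15a1 after quantile normalization. Genes higher in both were not counted over all genes, and each model is part of the mean that the other is set against. Without the host-rich tumors Col5a1 lost its call in 4T1 and Col1a1 in 6DT1, and Col7a1 was the gene higher in both. The difference between the lists was not tested. In 4T1 the higher genes included Col12a1 (1.12 ± 0.32), Col5a2 (1.01 ± 0.21), both type I genes, both common type IV genes and the 3 main type VI genes, beside Col7a1, the collagen of anchoring fibrils (0.64 ± 0.11; SE, adjusted p = 0.0071, 0.00028 and 2.0e-05 for the 3 genes with values). Col12a1 was 11.99, 12.12, 12.19 and 11.41 in 4T1, and 12.06 was the highest value of the other models. In each of Col1a1, Col1a2, Col5a2, Col6a3 and Col12a1 replicate 4 was the lowest 4T1 tumor. The fibroblast score of that tumor was -0.57, against -0.13 to 0.33 in the other 4T1 tumors. Col9a3 was the gene that was lower in 4T1, with -0.29 ± 0.10 (SE, adjusted p = 0.024), a call that was lost without replicate 2, 3 or 4 (adjusted p = 0.0627, 0.12 and 0.0616) and without the host-rich tumors (0.0553). Of 8 luminal genes 7 were higher in 4T1, with a score of 0.61 to 0.92, against -2.89 to 1.00 in the other tumors, and their part in the result was not tested.

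Among the genes higher in 6DT1 the largest differences were those of Col3a1, Col17a1, the transmembrane collagen of hemidesmosomes, and Col6a5. Col17a1 was 6.85, 8.07, 9.39 and 6.58, where replicates 2 and 3 are the adipocyte-rich tumors with scores of 2.06 and 2.84 for basal and myoepithelial genes, against -0.84 and -0.75 in replicates 1 and 4. The difference of Col17a1 from the other models was 0.72 ± 0.24 (SE, adjusted p = 0.016), it fell to 0.16 without replicate 3 (adjusted p = 0.578), and without the host-rich tumors it was -0.228. Col6a5 was higher by 0.68 ± 0.09 (SE, adjusted p = 5.6e-07), with both kinds of 6DT1 tumor above the rest. Without the host-rich tumors 9 collagen genes were higher and 4 lower in 6DT1, beside 15.8% and 18.4% of all genes. Col3a1, Col1a1 and Col17a1 were not among the 9. Col8a1 was lower in 6DT1, with -1.05 ± 0.31 (SE, adjusted p = 0.0078), a call that was lost without replicate 1, whose value was 8.06 (-0.563, adjusted p = 0.176).

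**Figure D4:**
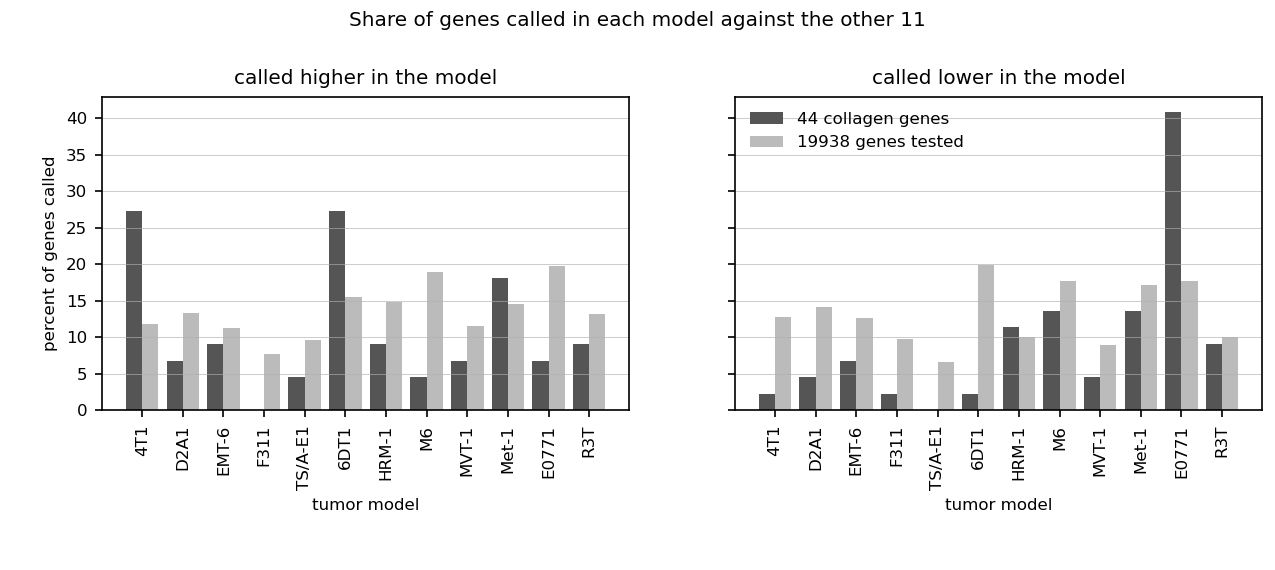
Percentage of the 44 collagen genes (dark bars) and of the 19938 genes tested (light bars) called higher (left) or lower (right) in each model against the mean of the other 11. The dark bars stand highest at 27.3% higher in 4T1 and 6DT1 and at 40.9% lower in E0771.

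Met-1 had the highest means of Col11a1, Col2a1 and the 3 type IX genes, which are known from cartilage, but not of Col10a1 or Col11a2. Type XI collagen, the seed of thin cartilage fibrils, and type IX, which decorates their surface, were represented by Col11a1 and by Col9a1, Col9a2 and Col9a3. Col11a1 was 10.37, 8.24, 10.23 and 10.04 in Met-1, and the highest value in the 44 other tumors was 7.34. Col9a1 was 8.87, 7.29, 9.05 and 8.82, against at most 7.28. Replicate 2 was the lowest Met-1 tumor in both genes. Its B cell score was 4.87 and its adipocyte score 2.43, against 0.13 to 1.54 and -0.26 to 1.14 in the other Met-1 tumors. Col9a2 was 9.00, 8.41, 9.01 and 9.13, against 8.45 in the highest tumor elsewhere.

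Against the mean of the other 11 models Met-1 was higher by 2.84 ± 0.16 for Col11a1, 1.84 ± 0.14 for Col9a1, 0.98 ± 0.10 for Col9a2, 0.86 ± 0.10 for Col9a3 and 0.57 ± 0.08 for Col2a1, the main collagen of cartilage (SE, adjusted p = 1.2e-16, 3.0e-13, 1.6e-10, 3.1e-09 and 4.7e-07). Col25a1, a transmembrane collagen, was higher by 0.61 ± 0.08 and Col4a5 by 0.85 ± 0.13 (SE, adjusted p = 1.0e-07 and 2.7e-06). In all, 8 collagen genes were higher in Met-1, or 18.2%, beside 14.6% of all genes, and 6 were lower, beside 17.2%. Those lower included Col18a1, a basement membrane zone collagen (-0.98 ± 0.18), Col6a3 (-0.77 ± 0.20) and Col5a3 (-0.75 ± 0.13; SE, adjusted p = 5.0e-05, 0.0025 and 2.4e-05). The same 8 genes were higher without the host-rich tumors.

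Other cartilage chains did not share this pattern. Col10a1 had a mean of 6.65 ± 0.46 in Met-1 (SD, n = 4), a difference of 0.04 ± 0.38 from the other models (SE, adjusted p = 0.95). Col11a2, the second chain of type XI, did not pass in the F-test (adjusted p = 0.18), with a range of model means of 0.27. Col27a1 and Col24a1, the other fibrillar genes of cartilage and bone, were not higher in Met-1 by the test. M6 was the next model in Col11a1 (7.17 ± 0.13), Col9a2 (8.14 ± 0.22), Col9a3 (8.42 ± 0.10) and Col2a1 (7.91 ± 0.14; SD, n = 4). Col9a3 was 8.46, 8.27, 8.50 and 8.46 in M6 and 8.73, 8.20, 8.78 and 9.07 in Met-1, with replicate 2 of Met-1 below the M6 tumors, and in M6 it was higher by 0.56 ± 0.10 (SE, adjusted p = 6.8e-06).

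Other genes known from cartilage were read after these values were seen, and are given as values only. Cnmd, which encodes the cartilage protein chondromodulin, had a mean of 9.96 in Met-1 and 7.94 in M6, against at most 6.24 in the other models. Snorc, a chondrocyte membrane proteoglycan, was 8.41 in Met-1 and 7.25 in M6, against at most 6.50. Sox9, the master regulator of cartilage that mammary epithelium also expresses, was 11.84 in Met-1 and 12.26 in M6, against at most 11.11. Acan, the main proteoglycan of cartilage, was 5.40 in Met-1 and 5.75 in M6, and R3T, MVT-1 and 6DT1 lay between them at 5.58, 5.55 and 5.44. Comp, Matn1 and Matn3 were at 6.54, 5.57 and 5.60 in Met-1 and at 6.78, 5.52 and 5.93 in M6. Their highest means in the other models were 6.62 in 6DT1, 5.62 in MVT-1 and 5.65 in D2A1. Of the SOX partners, Sox6 was highest in Met-1 (7.91, against at most 7.26), and Sox5 was 7.81 there and 7.91 in E0771. Hapln1, which links cartilage proteoglycans, was 6.52, 4.90, 5.39 and 6.29 in Met-1, with a mean of at most 4.95 elsewhere. In all, Met-1 had the highest mean for 4 of the 10 genes read, and M6 also for 4. The count was not made over all genes and leaves out the size of the lead, which was small in M6 for Acan, Comp and Matn3.

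Type X collagen, encoded by Col10a1 and known from hypertrophic cartilage, split the MVT-1 tumors. Its signal was 10.76, 6.32, 10.32 and 6.21 in MVT-1, and the highest value outside MVT-1 was 7.79. Replicates 1 and 3 thus stood above all other tumors, and replicates 2 and 4 were level with the models of low signal, such as R3T at 6.05 ± 0.09 (SD, n = 4). The MVT-1 mean was higher by 1.95 ± 0.38 (SE, adjusted p = 0.00020), and by 1.16 without replicate 1 (adjusted p = 0.0202). The luminal scores of the 4 tumors were -1.66, -1.32, -1.72 and -1.33 and the macrophage scores 0.18, 0.69, 0.36 and 0.67, so that both were lower in replicates 1 and 3, as were the adipocyte scores (-0.97 and -0.86, against 1.28 and -0.62) and the basal and myoepithelial scores (-0.82 and -0.69, against -0.24 and -0.64). The fibroblast scores, -0.50, 0.33, -0.15 and -0.21, did not divide the tumors in this way. The part of these cells in the split was not tested. In HRM-1 all 4 tumors had intermediate Col10a1, at 7.79, 7.74, 7.71 and 7.25. The difference of 1.10 ± 0.38 in HRM-1 (SE, adjusted p = 0.029) was not called without any 1 of replicates 1 to 3 (adjusted p = 0.0835 to 0.102).

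The 250 bases before the transcript starts of Col11a1, Col9a1, Col9a2 and Col10a1 are shown from RefSeq (GRCm38.p6). Col11a1 and Col9a1 are shown because every Met-1 tumor lay above all others, Col9a2 as a partner chain of Col9a1 with its highest mean in Met-1, and Col10a1 because it split the MVT-1 tumors. All lie on the + strand, at chr3:114030290-114030539, chr1:24177360-24177609 and chr1:24194953-24195202 for the 2 starts of Col9a1, chr4:121039316-121039565 and chr10:34389731-34389980. Capitals mark each GC box (GGGCGG, or CCGCCC on the other strand) and each TATA box (TATAAA, or TTTATA).

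Col11a1: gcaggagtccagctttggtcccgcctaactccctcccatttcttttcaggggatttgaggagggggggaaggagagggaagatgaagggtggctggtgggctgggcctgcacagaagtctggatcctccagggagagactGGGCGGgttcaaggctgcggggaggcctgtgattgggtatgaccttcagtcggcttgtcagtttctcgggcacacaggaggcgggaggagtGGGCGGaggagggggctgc

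Col9a1, upstream start: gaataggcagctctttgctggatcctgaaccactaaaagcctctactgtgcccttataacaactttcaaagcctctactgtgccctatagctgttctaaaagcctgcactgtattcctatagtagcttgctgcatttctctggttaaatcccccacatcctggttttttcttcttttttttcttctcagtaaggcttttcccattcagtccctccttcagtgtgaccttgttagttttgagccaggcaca

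Col9a1, downstream start: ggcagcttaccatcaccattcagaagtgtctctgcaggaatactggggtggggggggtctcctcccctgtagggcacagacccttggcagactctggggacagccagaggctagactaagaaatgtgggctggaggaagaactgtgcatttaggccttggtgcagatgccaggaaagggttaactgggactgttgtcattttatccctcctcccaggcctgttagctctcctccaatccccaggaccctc

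Col9a2: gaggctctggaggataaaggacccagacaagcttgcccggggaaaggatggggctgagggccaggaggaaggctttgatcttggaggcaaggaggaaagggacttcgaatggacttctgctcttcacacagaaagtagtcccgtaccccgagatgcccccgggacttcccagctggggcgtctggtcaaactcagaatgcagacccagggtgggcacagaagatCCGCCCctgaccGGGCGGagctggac

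Col10a1: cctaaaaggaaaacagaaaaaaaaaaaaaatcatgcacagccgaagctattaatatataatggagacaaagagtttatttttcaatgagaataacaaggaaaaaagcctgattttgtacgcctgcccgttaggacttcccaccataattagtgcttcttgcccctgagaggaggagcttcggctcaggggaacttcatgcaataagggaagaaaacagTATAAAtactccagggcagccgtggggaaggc

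Col11a1 and Col9a2 each held 2 GC boxes and no TATA box, Col10a1 held 1 TATA box and no GC box, and neither start of Col9a1 held either. Over all RefSeq windows, searched in the same 250 bases before the start, 32.7% held a GC box and 12.4% a TATA box. The core of the SOX motif, ACAAT or ATTGT, was found in none of the 5 sequences and in 27.7% of all windows. A match of letters describes the sequence and does not show a bound site. Of the 44 collagen genes 35 had a window in the table.

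**Figure D5:**
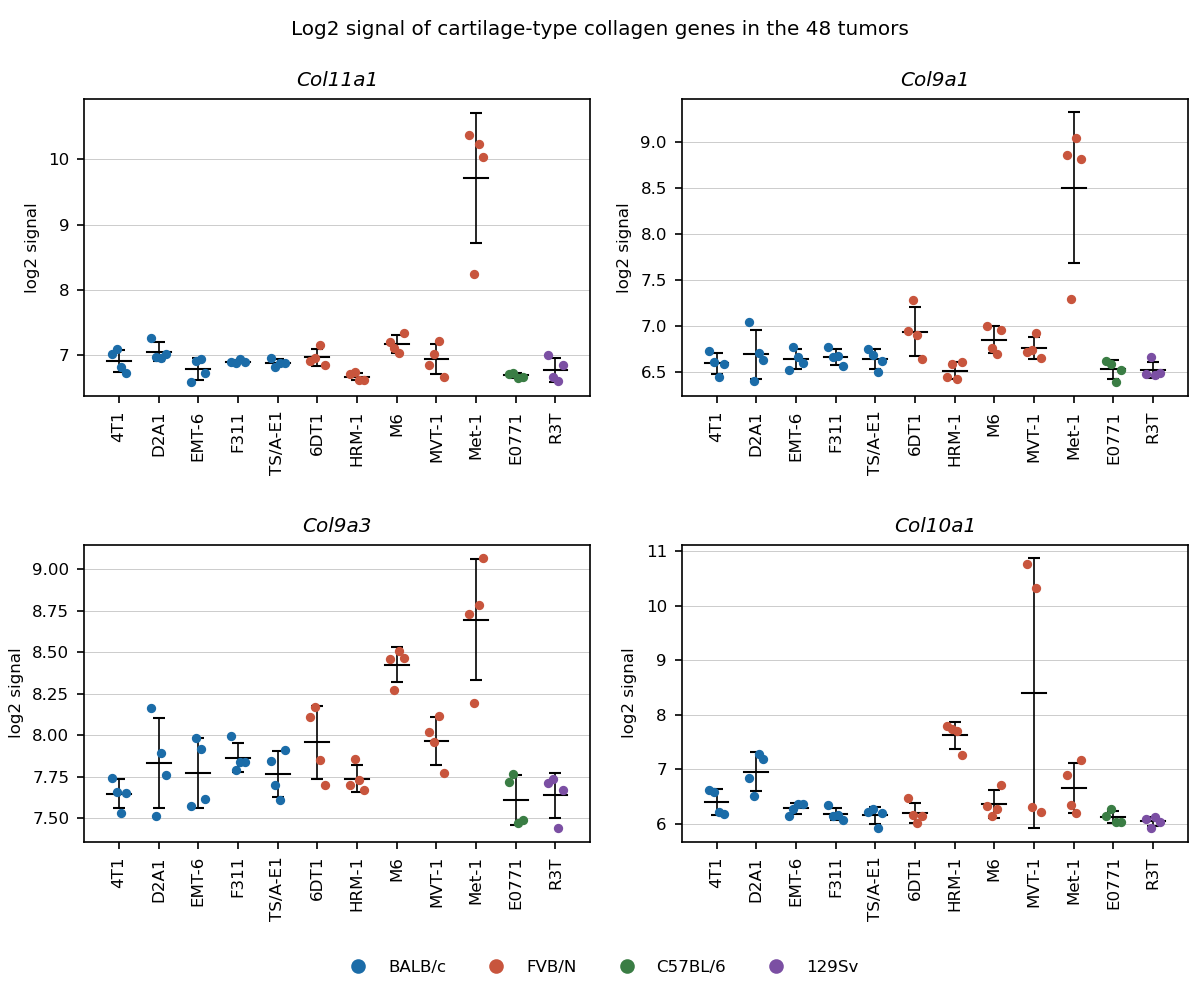
Log2 signal of Col11a1, Col9a1, Col9a3 and Col10a1 in the 48 tumors by model, each gene on its own axis. Points are tumors colored by strain, lines are means and bars are SDs of 4 tumors. Met-1 stands above the other models in Col11a1 and Col9a1, Met-1 and M6 overlap in Col9a3, and the MVT-1 tumors split in Col10a1 between 10.76 and 6.21.

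Types XV and XVIII are the multiplexin collagens that link basement membranes to the tissue beneath. Their highest means lay in different models, 4T1 for Col15a1 and HRM-1 for Col18a1, and both genes passed as higher in HRM-1. Col18a1 was 10.45, 10.47, 10.33 and 10.13 in HRM-1 and 10.13, 9.99, 10.01 and 10.24 in TS/A-E1, against 8.59, 7.98, 8.51 and 8.65 in Met-1. Col15a1 was highest in 4T1 (10.09 ± 0.23) and HRM-1 (9.93 ± 0.28) and lowest in E0771 (8.26 ± 0.69; SD, n = 4). Their correlation was 0.168 over model means and -0.365 over tumors within models.

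HRM-1 had 4 genes higher, beside 14.8% of all genes, and 5 lower, beside 10.1%. Higher were Col18a1 (1.11 ± 0.18), Col10a1, Col8a1 (1.02 ± 0.31) and Col15a1 (0.78 ± 0.23; SE, adjusted p = 1.2e-05, 0.013 and 0.0095 for the genes with values), and the lower genes included Col3a1 and Col1a2. Col8a1 was tightly grouped in HRM-1, at 11.55, 11.34, 11.41 and 11.42, and was scattered in F311, at 9.00, 11.46, 11.73 and 11.74, where replicate 1 is rich in adipocyte and B cell genes (scores 3.44 and 4.87). Of 7 fibroblast genes 3 were lower in HRM-1, among them Pdgfra (-1.77 ± 0.26; SE, adjusted p = 2.1e-06), with a fibroblast score of -1.23 to -0.03, against -1.32 to 1.51 in the other tumors. Their part in the lower fibrillar genes was not tested. The difference of Col1a2 (-0.67 ± 0.25; SE, adjusted p = 0.043) was not called without replicate 1, 2 or 4 (adjusted p = 0.104 to 0.211), and in all 4 to 11 genes passed in HRM-1 as each tumor of the study was left out in turn, with 4 without replicate 1.

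In the remaining models 1 to 8 collagen genes passed. Without the host-rich tumors the counts rose from 7 to 11 in EMT-6, from 1 to 4 in F311 and from 5 to 8 in MVT-1. They rose from 8 to 13 in R3T and from 2 to 7 in TS/A-E1. The shares of all genes called rose as well. They became 15.2% higher and 17.1% lower in EMT-6, 13% and 11.2% in F311, and 16.2% and 17.2% in MVT-1. In R3T they were 17.8% and 14.6%, and in TS/A-E1 14% and 13.1%. No tumor of MVT-1 or TS/A-E1 was host-rich. Luminal genes were lower in D2A1 (7 of 8), EMT-6 (5) and MVT-1 (5) and higher in TS/A-E1 (5) and M6 (4), and of 6 macrophage genes 4 were higher in EMT-6 and 4 lower in M6. The part of these cells in the results was not tested. In D2A1 3 genes were higher, beside 13.4% of all genes, led by Col5a1 (0.64 ± 0.11; SE, adjusted p = 2.6e-05), and 2 were lower, beside 14.1%, Col6a2 (-0.53 ± 0.18) and Col6a1 (-0.40 ± 0.14; SE, adjusted p = 0.022 and 0.026), both lost without replicate 3 or without replicate 4, when 2 genes in all passed. Col28a1, also higher in D2A1 (0.37 ± 0.11; SE, adjusted p = 0.012), was lost without replicate 2. In EMT-6 4 genes were higher, beside 11.3%, and 3 lower, beside 12.6%. They were led by Col1a2 (0.99 ± 0.25; SE, adjusted p = 0.0025), and Col5a3, Col6a3 and Col18a1 lost their calls without single EMT-6 tumors, when 3 or 4 genes in all passed. In M6 2 genes were higher, Col9a3 and Col8a2, beside 18.9%, and 6 lower, beside 17.7%, led by Col6a3 (-0.88 ± 0.20) and Col18a1 (-0.72 ± 0.18; SE, adjusted p = 0.00042 and 0.0016). Replicate 3 of M6 had a skeletal muscle score of 3.67, against -0.05 to 1.54 in the other M6 tumors. Without it Col18a1 was -1.09 and Col6a3 -1.11, and 9 genes in all passed in M6. Col8a2 was lost without replicate 3 or 4.

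In MVT-1 Col16a1 (0.38 ± 0.10; SE, adjusted p = 0.0038) and Col27a1 were higher beside Col10a1, 3 genes against a background of 11.6%, and the 2 common type IV genes were lower, against 8.97%. In TS/A-E1 Col18a1 (0.83 ± 0.18; SE, adjusted p = 0.0011) and Col7a1 (0.37 ± 0.11; SE, adjusted p = 0.013) were higher, against 9.62%, and none were lower by limma, against 6.57%, with 8 genes at an unadjusted p under 0.05 in either direction. Col7a1 was lost there without replicate 4 (adjusted p = 0.065). In F311 the only gene called was Col16a1, lower by limma with -0.30 ± 0.10 (SE, adjusted p = 0.030), where 7.79% of all genes were higher and 9.76% lower, and 4 collagen genes had an unadjusted p under 0.05. It was lost without replicate 2, 3 or 4, and 5 genes passed without replicate 1 and 2 without 6DT1 replicate 1. In R3T the 4 lower genes were led by Col18a1 (-0.69 ± 0.18) and Col16a1 (-0.46 ± 0.10; SE, adjusted p = 0.0047 and 0.00045).

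BALB/c and FVB/N models were compared on model means, 5 against 5, and strain cannot be told apart from the spontaneous or engineered origin of these lines. None of the 44 genes passed in limma in either direction, beside 0.0953% of all genes higher and 0.0953% lower in BALB/c, and none passed in the methods' t-test after adjustment or with all 40 tumors and the model as a random block. At an unadjusted p under 0.05 there were 5: Col28a1, Col1a1, Col12a1 and Col1a2, with higher means in BALB/c, and Col9a3, with a higher mean in FVB/N. Col1a1 had a mean of 12.13 in BALB/c and 11.64 in FVB/N models, a difference of 0.49 ± 0.20 (SE, adjusted p = 0.59), and the FVB/N model 6DT1 lay above 4 of the 5 BALB/c models. Col9a3 had means of 7.78 and 8.16.

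The 10 genes that did not pass in the F-test were Col11a2, Col24a1, Col6a4, Col6a6, Col13a1, Col14a1, Col17a1, Col19a1, Col22a1 and Col23a1, with adjusted p from 0.053 to 0.60. Most had narrow ranges of model means, down to 0.17 for Col19a1. Col14a1, which binds type I fibrils, had a range of 1.52 but also the widest spread within models, a pooled SD of 0.79. It was 8.34, 10.84, 11.21 and 10.41 in 6DT1, where replicate 1, with the lowest fibroblast score of the study (-1.32), was also the lowest. Col11a2, Col6a4, Col14a1 and Col19a1 passed in no model contrast either.

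Genes that process, crosslink and bind collagen differed among the models more often than not. In the F-test 28 of 31 measured genes of collagen synthesis and crosslinking passed, and 9 of 9 collagen receptors, beside 70.4% of all genes. Most of the genes on these 2 lists lay above the median signal, where 95.9% of all genes passed. The receptor Itga2, the collagen-binding integrin chain of epithelium and platelets, ranged from 11.38 ± 0.19 in 4T1 to 7.56 ± 0.18 in E0771 (SD, n = 4, adjusted p = 1.1e-18). The discoidin receptors, kinases that are switched on by collagen, went apart in EMT-6, which had the highest Ddr2 (11.27 ± 0.12) and the lowest Ddr1 (8.53 ± 0.08), while M6 had the lowest Ddr2 (8.16 ± 0.80; SD, n = 4). Ddr2 was higher in EMT-6 by 1.19 ± 0.18 and lower in M6, with -2.21 ± 0.18 (SE, adjusted p = 3.1e-06 and 1.1e-12). Ddr1 was lower in EMT-6, with -1.03 ± 0.10 (SE, adjusted p = 2.2e-10).

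Among the genes of collagen synthesis and crosslinking, P3h2, a prolyl 3-hydroxylase, was highest in Met-1 (10.83 ± 0.65) and P3h4 in EMT-6 (9.41 ± 0.25). Pcolce2, an enhancer of procollagen trimming, was highest in D2A1 (10.68 ± 0.23) and lowest in Met-1 (7.73 ± 0.73). These are means ± SD with n = 4. Mia3, which loads bulky procollagen for export, was highest in E0771 (9.79 ± 0.18), and Tgm2, a crosslinking transglutaminase, in EMT-6 (11.97 ± 0.23; SD, n = 4). In E0771, the model with the most collagen genes lower, 13 of the 31 machinery genes were lower and 7 higher. Of all genes 17.8% were lower there and 19.8% higher. Of the 4 lysyl oxidases measured, Lox (-1.25 ± 0.33), Loxl1 (-1.21 ± 0.29) and Loxl3 (-1.14 ± 0.22; SE, adjusted p = 0.0021, 0.00082 and 4.6e-05) were lower, while Loxl4 was higher (0.70 ± 0.27; SE, adjusted p = 0.042). Serpinh1, the chaperone of procollagen, was also higher (0.56 ± 0.10; SE, adjusted p = 3.1e-05). In 4T1 4 of the 31 machinery genes were higher and 1 lower, beside 11.8% and 12.8% of all genes. In M6 1 was higher and 14 lower, beside 18.9% and 17.7% of all genes.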

How the data were processed

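RNA (100 ng per tumor) was amplified and hybridized by the authors to Affymetrix Mouse 1.0ST arrays, 1 per tumor. The deposited values are log2 signals for 35556 transcript clusters, made by a normalization and software that the sources used here leave unstated. Array medians lay between 6.76 and 6.99. The labels call the 4 tumors of a model independent and give no batch. Clusters naming 1 gene were kept, and the brightest cluster represented a gene, which left 19938 genes, unfiltered. Tests used limma 3.58.1 in R 4.3.3 with 1 group per model: the F-test, each model minus the mean of the other 11, and BALB/c minus FVB/N on model means, with Benjamini-Hochberg adjustment over all genes. Pearson correlations are descriptions. Figures and summaries used Python 3.11.15, pandas 2.3.3, numpy 2.4.6, scipy 1.17.1 and matplotlib 3.10.9.

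The members, gene lists and tests were chosen with earlier results of these data known. Named are the chains of types I, III, IV, V and VI, the 12 widest ranges, up to 2 called genes per direction and model, genes called between strains, and the 8 machinery or receptor genes with the smallest p. Others named were chosen after their values were seen. On simulated data with 200 of 19938 genes changed by 1, the F-test recovered 165, a model contrast 181 and the strain contrast 138, with 1, 5 and 10 false calls. With a change of 0.5 they recovered 104, 157 and 87 of the 200, with 3, 2 and 5 false calls. Alternatives were quantile normalization, median centring, the mean of clusters, leaving out the dimmest 30% of genes, an intensity trend, the replicate number as a block, leaving out 9 tumors with an adipocyte or B cell score above 2.5, the methods' tests, adjustment over all 12 contrasts, a random block for the model, and leaving out each tumor or model.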

Additional observations from a re-analysis of the deposited data

Results flagged for a closer look

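Col1a1, Col4a1, Col5a1 and the 3 mean collagen scores in each of 12 models made 72 groups of 4 tumors. In 8 groups a tumor stood apart from the other 3 of its model by Dixon's criterion. Chance meets this criterion in about 1 of 20 independent groups. The groups share tumors, and the scores include the single genes, so the 8 cannot be set against that rate. TS/A-E1 replicate 1 and D2A1 replicate 1 stood apart in more than 1 group. Col1a1 signal was 12.08 in 4T1 replicate 4, with 12.64 as the nearest value, and 12.18 in Met-1 replicate 3, with 11.54 as the nearest. Col4a1 was 9.67 in TS/A-E1 replicate 1, with 9.52 as the nearest. The fibrillar score was -0.13 in HRM-1 replicate 3, with -0.41 as the nearest, and 0.25 in TS/A-E1 replicate 1, with 0.05 as the nearest. The basement membrane score was 0.20 in D2A1 replicate 1, with -0.07 as the nearest, and 0.00 in EMT-6 replicate 3, with -0.19 as the nearest. The score of the other collagens was 0.35 in D2A1 replicate 1, with -0.04 as the nearest.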

How the results depend on the processing

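The 34 genes of the F-test numbered 33 to 35 under the alternatives run on all arrays and 33 to 36 with single tumors left out, and the strain count stayed at 0 throughout, in single-tumor fits too. Without the 9 host-rich tumors the counts in EMT-6, F311, MVT-1, R3T and TS/A-E1 became 11, 4, 8, 13 and 7 in place of 7, 1, 5, 8 and 2, and Col17a1 in 6DT1 turned to -0.228. The shares of all genes called also rose in EMT-6, F311, MVT-1, R3T and TS/A-E1. Adjusted over all 12 contrasts together, TS/A-E1 had 4. The cause was not tested.

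Quantile normalization and median centring gave 12 and 10 genes lower in E0771 (3 and 4 higher), 8 and 7 lower in M6 (1 higher in each), 7 and 8 lower in R3T (4 and 3 higher) and 7 and 8 lower in Met-1 (8 and 7 higher). The range of the basement membrane score, 0.57, was 0.402 with the median over genes and 1.24 with bright genes only, and that of the other collagens, 0.43, was 0.277 and 0.755.

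With single tumors left out the count was 9 to 16 in 4T1 and in 6DT1, 2 to 6 in D2A1, 14 to 22 in E0771, 3 to 10 in EMT-6, 0 to 5 in F311, 4 to 11 in HRM-1, 6 to 9 in M6, 13 to 16 in Met-1, 3 to 7 in MVT-1, 6 to 10 in R3T and 1 to 4 in TS/A-E1, and the score ranges were 0.653 to 0.804, 0.530 to 0.606 and 0.407 to 0.486. Of the values of single genes under all alternatives, 3643 stayed on their side of the threshold with the same sign, 46 lost their call, 6 gained one and 1 reversed.

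Same-numbered tumors had a median correlation of deviations of 0.033, from -0.65 to 0.56, so the numbers do not pair the tumors, and with the replicate block the F-test count was 34 and the E0771 count 20. Signal near background limits the dim genes, such as Col4a3 and Col4a4.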
